A study of Homo sapiens with 6 samples.

Results

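Integrins are the cell's main receptors for the extracellular matrix, and the 9 integrin subunit genes described here are ITGB1, ITGB3, ITGB5, ITGB8, ITGA2, ITGA3, ITGA5, ITGA6 and ITGAV. They were picked out by gene ID from 62492 features of a table of ribosome footprints. The footprints came from WPMY-1, an established, immortalised human line of prostate stromal myofibroblasts. In ribosome profiling a nuclease removes mRNA that ribosomes do not cover, and the protected pieces are sequenced, so a footprint count reflects both the amount of an mRNA and the density of ribosomes on it. Of the 6 libraries, 3 carried the hairpin labelled shcontrol (genotype label: TRMT61A wildtype) and 3 carried the hairpin labelled sh61A (genotype label: TRMT61A knockdown). TRMT61A is the catalytic subunit of the enzyme that adds 1-methyladenosine to tRNA, and the study asked how its loss affects translation. All libraries share the parent line and the short-hairpin approach, and 1 hairpin name stands for the knockdown. The labels do not say whether a library came from its own culture or whether cells were cloned, so the p-values measure the spread between libraries, which may be technical.

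An integrin is a pair of one alpha and one beta chain, both of which cross the membrane. The alpha chain largely sets which matrix protein is bound, while the tail of the beta chain recruits talin and kindlin and so links the matrix to actin. The β1 chain has many alpha partners and forms collagen, laminin and fibronectin receptors. The αV chain pairs with several beta chains into receptors for ligands that carry an Arg-Gly-Asp motif, among them vitronectin, fibronectin and the latent form of TGF-beta. In stromal cells these receptors carry adhesion and contraction, and αV integrins can release TGF-beta from its latent complex.

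None of the 8 integrin genes that could be tested passed the test between the groups after adjustment over all features (edgeR, adjusted p under 0.05). Of all tested features 3.12% passed. Values for ITGA5, the fibronectin receptor alpha chain, were 1.49 times the control in the knockdown libraries, with all 3 above all 3 controls. Values for ITGB8, an αV partner with few counts, were 1.96 times the control, also without overlap. The groups did not overlap for 24.8% of all tested features, 12.2% with higher values in the knockdown, so such a separation is common here. Neither gene kept its groups apart when libraries were scaled by total counts alone. ITGB5, another αV partner, had a fitted fold of 1.46, close to that of ITGA5, but its groups overlapped. ITGB1, ITGA2, ITGA3, ITGA6 and ITGAV also overlapped between the groups, with fitted folds from 0.990 (ITGAV) to 1.19 (ITGB1). The ninth gene, ITGB3, had no footprint in any library.

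Depth differed between the groups. Total counts ran from 6771455 to 8008896 in the control libraries and from 12704354 to 17752247 in the knockdown libraries, a ratio of means of 1.98. The 9 genes together took 7299 to 8577 counts per control library and 13400 to 18891 per knockdown library. Counts were scaled to CPM, counts relative to a fixed total, with TMM factors, which assume that most features do not differ. The factors of controls 1 to 3 were 0.923, 1.21 and 1.21, and those of knockdowns 1 to 3 were 0.858, 0.890 and 0.974. Folds on the TMM-scaled CPM below rest in part on them. With total library size in their place, the median log2 fold change of all 11653 tested features moved from -0.0047 to -0.30. The level of TRMT61A itself and of stromal, epithelial or leukocyte marker genes was not analysed here, because no table used here pairs their Ensembl IDs with symbols. The labels of knockdown and of cell type were therefore not checked against expression.

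Among the beta chains, ITGB1 (ENSG00000150093.19_7) encodes the shared β1 chain. Its footprints were 458, 528 and 368 CPM in control libraries 1 to 3 and 570, 634 and 406 CPM in knockdown libraries 1 to 3. Control library 2 lay above knockdown library 3, so the groups overlapped. The means were 451 ± 80 and 537 ± 117 CPM (SD, n = 3 each). The fitted log2 difference was 0.25 ± 0.24 (SE; edgeR, adjusted p = 0.713). The 95% interval of the fold ran from 0.822 to 1.72. With 3243 to 8671 counts per library, counting error was under 2% (1.66% and 1.19% in the 2 groups), while the libraries of a group varied by 17.8% and 21.9% (coefficient of variation, CV). The spread between libraries was therefore far above counting error. In RefSeq (GRCh38.p14) a small nucleolar RNA, SNORA86, and a pseudogene, AK3P5, overlap the span of ITGB1, and ITGB1P1 is a pseudogene named after it. Whether reads from any of these were counted here was not tested.

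ITGB5 (ENSG00000082781.12_6) encodes the β5 chain, which pairs with αV into a vitronectin receptor. Control libraries 1 to 3 had 41.5, 25.9 and 19.4 CPM, and knockdown libraries 1 to 3 had 37.3, 41.9 and 47.2 CPM. Control library 1 lay within the knockdown range, and the other two controls lay below it. The fitted log2 difference was 0.54 ± 0.30 (SE; edgeR, adjusted p = 0.423), and the 95% interval of the fold ran from 0.923 to 2.31. The control libraries differed by up to 2.14-fold among themselves and the knockdown libraries by up to 1.26-fold. Without control library 1 the log2 difference was 0.89 (edgeR, adjusted p = 0.186), and without control library 3 it was 0.32 (edgeR, adjusted p = 0.781).

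ITGB8 (ENSG00000105855.10_4) encodes the β8 chain, whose αVβ8 receptor binds latent TGF-beta. Its raw counts were 39, 74 and 42 in controls 1 to 3 and 245, 116 and 143 in knockdowns 1 to 3. On the CPM scale these were 5.29, 9.07 and 4.76 against 16.1, 9.83 and 11.6. The groups did not overlap, but control library 2 and knockdown library 2 lay close together. In CPM from total counts, without TMM, the values were 4.87, 10.9 and 5.73 against 13.8, 8.73 and 11.3, and these 2 libraries changed places. The fitted log2 difference was 0.97 ± 0.45 (SE), and the adjusted p in edgeR was 0.317. The 95% interval of the fold ran from 0.988 to 3.90. Depth was thinner here, and counting error alone was 13.9% in the control group, against a CV between libraries of 36.9%. Fits that each left out 1 library gave log2 values from 0.75 (without knockdown library 1) to 1.31 (without control library 2), and none of them called it. An antisense gene, ITGB8-AS1, and a small nucleolar RNA gene overlap ITGB8 in RefSeq. Strand use in counting is not given in the sources used here, so reads of these genes cannot be told apart.

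ITGB3 (ENSG00000259207.9_5) encodes the β3 chain of the αVβ3 vitronectin receptor. It had 0 counts in all 6 libraries. Since up to 3 counts can be missed by chance, the limit for ITGB3 is 0.375 to 0.443 CPM in controls and 0.169 to 0.236 CPM in knockdowns. These limits are in CPM from total counts, without TMM. At this depth ITGB3 footprints were not detectable in either group, and no fold can be given. A count of 0 in all 6 libraries was shared with most features of the table, as only 20515 of 62492 had any count. Genes that overlap ITGB3 in the annotation behind the counts could also take its reads, which was not tested.

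**Figure D1:**
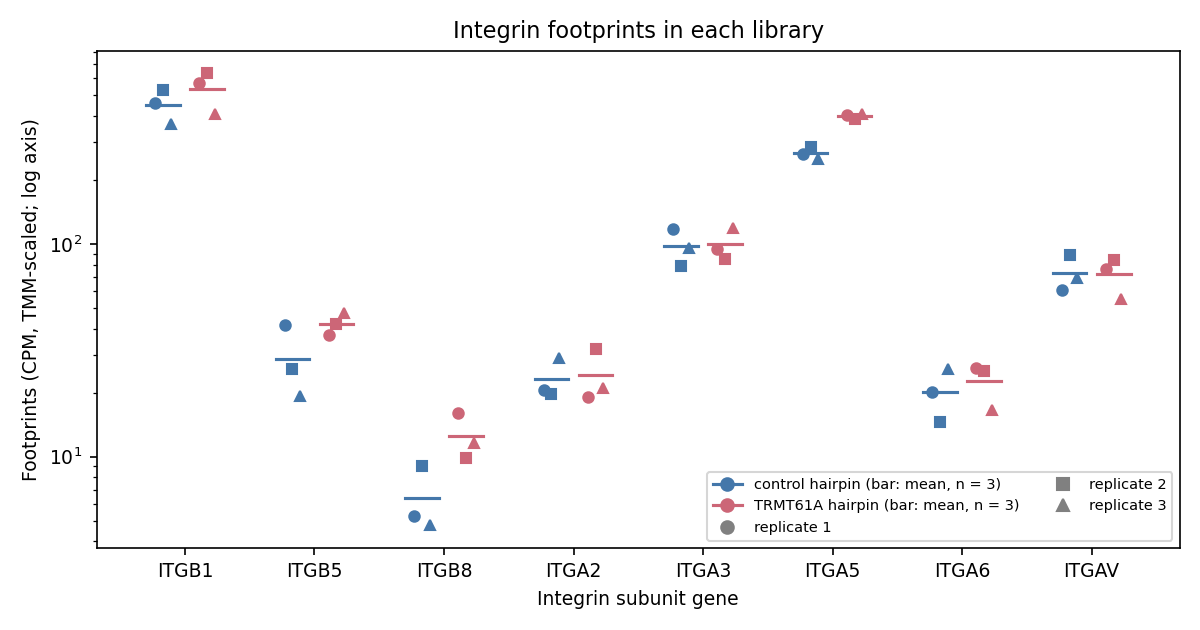
Footprints of the 8 integrin genes with counts, in TMM-scaled CPM on a log axis, 1 point per library with the group mean as a bar (n = 3 per group). ITGA5 lies at 251 to 287 CPM in the control libraries and 389 to 410 CPM in the knockdown libraries. ITGB8 also separates, neither of them with total counts alone, while the other 6 genes overlap between groups. Of all tested features 24.8% separate on this scale.

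Among the alpha chains, ITGA5 (ENSG00000161638.11_6) encodes the α5 chain, which pairs with β1 into the main fibronectin receptor. It had 266, 287 and 251 CPM in control libraries 1 to 3 and 402, 389 and 410 CPM in knockdown libraries 1 to 3. All 3 knockdown libraries lay above all 3 controls. The means were 268 ± 18 and 400.1 ± 10.5 CPM (SD, n = 3 each), and the log2 fold change was 0.58 ± 0.20 (SE). The 95% interval of the fold ran from 1.10 to 2.03. In edgeR the p was 0.0145 before adjustment and 0.158 after it, which put ITGA5 at place 1069 among 11653 features ordered by p. On the TMM scale ITGA5 had the smallest spread of the 8 genes, with CVs of 6.76% in control and 2.63% in knockdown. Counting error was 2.15% and 1.38%. The call depended on the tool. For a log2 value of 0.59, DESeq2 gave adjusted p = 0.0133, while limma voom gave 0.0946 for 0.58. Over all 15 alternatives the adjusted p ran from 0.0133 to 0.616, and DESeq2 alone passed the threshold. The separation also depended on the scaling. With CPM taken from total counts, without TMM, ITGA5 was at 245, 345 and 301 in controls 1 to 3 and at 344, 345 and 398 in knockdowns 1 to 3. Control library 2 then lay within the knockdown range, and the libraries of each group spread more widely than with TMM.

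ITGAV (ENSG00000138448.12_5) encodes the αV chain, the partner of β3, β5 and β8 and one partner of β1. It had 61.0, 88.4 and 69.0 CPM in control libraries 1 to 3 and 76.3, 84.5 and 55.3 CPM in knockdown libraries 1 to 3. The knockdown values spanned nearly the same range as the controls. The fitted log2 difference was -0.015 ± 0.25 (SE; edgeR, adjusted p = 0.991). The 95% interval of the fold, 0.679 to 1.44, still allows a moderate change in either direction.

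ITGA3 (ENSG00000005884.18_4) encodes the α3 chain of the laminin receptor α3β1. It had 117, 79.1 and 95.9 CPM in control libraries 1 to 3 and 95.1, 85.3 and 118 CPM in knockdown libraries 1 to 3, so the groups covered the same range. The log2 difference came to 0.031 ± 0.24 (SE; edgeR, adjusted p = 0.975), with a 95% interval of the fold from 0.713 to 1.46.

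ITGA6 (ENSG00000091409.15_6) encodes the α6 chain, also of laminin receptors. It had 20.2, 14.6 and 25.7 CPM in control libraries 1 to 3 and 26.0, 25.3 and 16.5 CPM in knockdown libraries 1 to 3. Control library 3 and knockdown library 1 were nearly level. The log2 difference came to 0.16 ± 0.33 (SE; edgeR, adjusted p = 0.885), with a 95% interval of the fold from 0.683 to 1.84.

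ITGA2 (ENSG00000164171.11_4) encodes the α2 chain of the collagen receptor α2β1. It had 20.5, 19.6 and 29.3 CPM in control libraries 1 to 3 and 19.1, 32.2 and 21.0 CPM in knockdown libraries 1 to 3. In each group 1 library stood above the other two, and the groups overlapped. The log2 difference came to 0.057 ± 0.32 (SE; edgeR, adjusted p = 0.964), with a 95% interval of the fold from 0.646 to 1.68. In RefSeq the spans of ITGA2, ITGA5 and ITGA6 each overlap at least 1 long noncoding RNA gene, so reads of either gene could be counted for the other. The span of ITGB5 overlaps long noncoding RNA genes and a pseudogene, ENO1P3. No overlapping gene was listed for ITGA3 or ITGAV.

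Read together, 0 of the 8 tested genes were called at an adjusted p under 0.05 in edgeR, where 3.12% of the 11653 tested features were called. At an unadjusted p under 0.05 there was 1 of 8, ITGA5, which was higher in the knockdown. Over all features 16.3% reached that unadjusted level and 7.95% did so with higher values in the knockdown. DESeq2 called 1 of the 8 genes, ITGA5, where it called 5.71% of the 13730 features to which it gave an adjusted p. In limma voom 0 of the 8 were called, against 3.8% over all features. At an unadjusted p under 0.05 each of these tools gave 1 of 8, against 11.4% of features in DESeq2 and 17.6% in limma voom. The groups did not overlap for 2 of the 8 genes, both higher in the knockdown. Over all features 24.8% did not overlap, and 12.2% did so with higher values in the knockdown. The 2 of 8 is thus close to the share of all features. With library size in place of TMM, 0 of the 8 genes and 25.2% of all features did not overlap. The median log2 fold change of the 8 genes was 0.21, from -0.015 to 0.97, against -0.0047 over all features. With library size alone the medians were -0.10 and -0.30. With that shift the fitted values of ITGB1, ITGA2, ITGA3 and ITGA6 were below 0, at -0.054, -0.25, -0.23 and -0.14. Measured against the median of all features, 7 of the 8 genes were above it under both scalings. Over all features 49.7% were above 0 with TMM. ITGA3 and ITGA2 were above the median by only 0.036 and 0.062 with TMM, less than their SEs of 0.24 and 0.32. ITGB8 was above that median by 0.98 with TMM and 0.95 with library size, and ITGA5 by 0.58 and 0.59. A change of scaling moves the genes and the median by nearly the same amount, so near-equal values here had to follow.

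**Figure D2:**
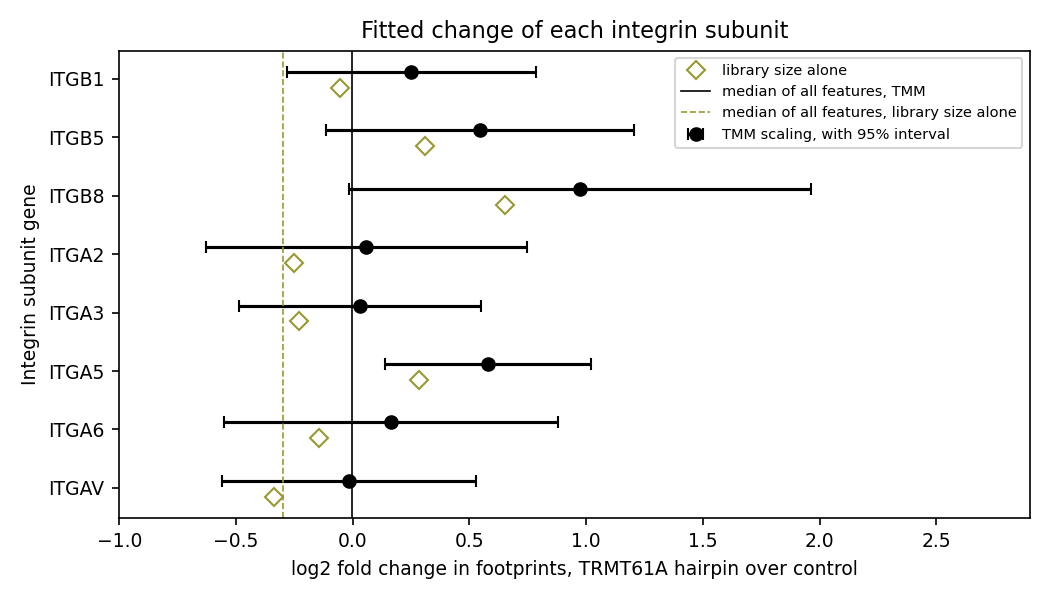
Log2 fold change in footprints of 8 integrin genes, knockdown over control, fitted with TMM scaling (circles, with 95% intervals) and with library size alone (diamonds), beside the median of all features under each scaling (lines). The TMM interval of ITGA5 runs from 0.14 to 1.02 and lies above 0, the other 7 include 0, and all diamonds lie to the left of their circles.

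The summed level of the 8 genes was 990, 1052 and 862 CPM in control libraries 1 to 3 and 1242, 1302 and 1086 CPM in knockdown libraries 1 to 3. The groups did not overlap, and the ratio of the means was 1.25. Most of the counts in that sum are those of ITGB1 and ITGA5. In CPM from total counts, without TMM, the same sums were 911, 1267 and 1037 against 1064, 1156 and 1055. On that scale the groups overlapped, and the ratio was 1.02. Relative to the median of all features, the log2 ratio of the sums was 0.33 under both scalings. That match follows from the arithmetic, since a change of scaling moves all features by nearly the same amount. It is not a check of the scaling.

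A ratio of counts of 2 genes within a library does not depend on how libraries are scaled. It was computed for 7 subunit pairs known to form receptors. Ratios of different pairs are not compared, since gene length enters them. The smallest p that an exact permutation test of 3 libraries against 3 can give is 0.1, so none could pass a threshold of 0.05. For β8 against αV, there were 8.67, 10.3 and 6.91 ITGB8 counts per 100 ITGAV counts in control libraries 1 to 3. Knockdown libraries 1 to 3 had 21.1, 11.6 and 20.9. This was the only pair of the 7 whose groups did not overlap, though knockdown library 2 lay near control library 2. A pair without any difference between the groups would separate in one or the other direction with a probability of 0.1. The ratio was 2.03 times higher in the knockdown on average, a log2 difference of 1.02 (exact two-sided permutation p = 0.1, Benjamini-Hochberg adjusted over the 7 pairs 0.525).

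For α5 against β1, there were 58.1, 54.3 and 68.1 ITGA5 counts per 100 ITGB1 counts in controls 1 to 3, against 70.5, 61.3 and 100.8 in knockdowns 1 to 3. Control library 3 lay within the knockdown range. The average ratio was 1.27 times higher in the knockdown (exact two-sided permutation p = 0.2, adjusted 0.525). Without knockdown library 3 the log2 difference fell from 0.34 to 0.13, so that library carried much of it. The separation of ITGA5 between groups on the CPM scale was not seen when ITGA5 was set against its partner. ITGB1 brings its own spread into this ratio. In TMM-scaled CPM its CVs were 17.8% in control and 21.9% in knockdown, against 6.76% and 2.63% for ITGA5. The overlap of the ratio therefore cannot decide whether ITGA5 itself differed.

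For β5 against αV, there were 68.0, 29.3 and 28.1 ITGB5 counts per 100 ITGAV counts in controls 1 to 3, against 48.9, 49.6 and 85.2 in knockdowns 1 to 3 (exact two-sided permutation p = 0.3, adjusted 0.525). Control library 1 stood well above the other two controls and within the knockdown range. For αV against β1, the control libraries had 13.3, 16.7 and 18.7 ITGAV counts per 100 ITGB1 counts, and the knockdown libraries had 13.4, 13.3 and 13.6 (exact two-sided permutation p = 0.3, adjusted 0.525). The knockdown libraries were nearly identical in this ratio, at the level of the lowest control. The pairs α2, α3 and α6 against β1 overlapped between groups, with average ratios 0.873, 0.868 and 0.954 times the control (exact two-sided permutation p = 0.8, 0.9 and 0.8, each 0.9 after adjustment).

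**Figure D3:**
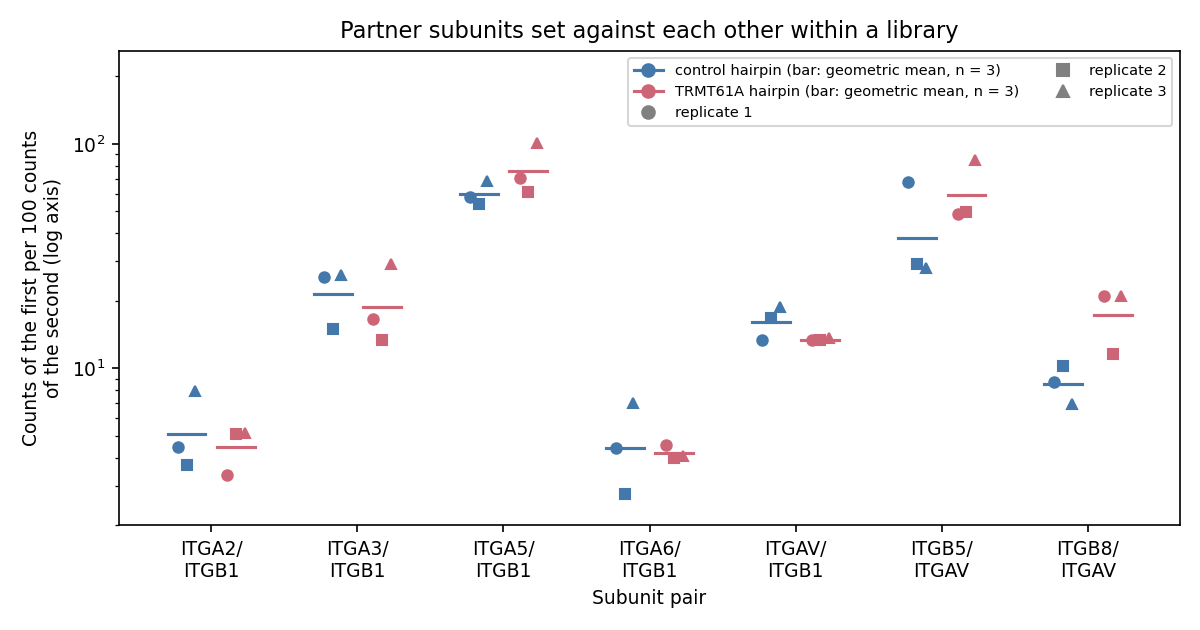
Counts of one integrin subunit per 100 counts of its partner in the same library, on a log axis, for 7 pairs, 1 point per library with the geometric mean of each group as a bar (n = 3 per group). The ITGB8 to ITGAV ratio is 6.91 to 10.3 in control and 11.6 to 21.1 in knockdown, and the other 6 pairs overlap between groups.

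The genes also differed in how far their profiles across libraries lay from that of ITGB1. Likeness was measured as the Euclidean distance between log2 CPM profiles centred on each gene's mean over the 6 libraries. ITGAV was nearest to ITGB1 of the 7 other genes, at 0.476, with 123 of the tested features nearer. ITGA5 was next at 0.709, followed by ITGA6 at 0.949 and ITGA2 at 0.972. ITGB5, ITGA3 and ITGB8 were farthest, at 1.04, 1.07 and 1.17. Over all tested features, those nearest to ITGB1 were ENSG00000124813.23_7 at 0.165 and ENSG00000198363.18_6 at 0.226, which the tables used here do not pair with names. Such a distance depends on the size of the changes as well as on their pattern. A flat profile can therefore lie nearer than a varying one, and the order does not show which genes follow ITGB1. These distances describe 6 libraries of 2 groups and carry no test.

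Within a group, the median CV of the 8 genes in TMM-scaled CPM was 21.4% in control and 21.4% in knockdown. Over all tested features, which were not matched to them for abundance, it was 32.6% and 35.6%. By gene, the CV ran from 6.76% (ITGA5) to 39.3% (ITGB5) in control and from 2.63% (ITGA5) to 29.5% (ITGA2) in knockdown. The other integrin subunits, the adaptors and kinases of adhesions and the matrix ligands were not analysed here for want of a pairing of IDs with names.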

How the data were processed

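The deposited table holds raw read counts per Ensembl gene ID, with no normalisation by the authors visible in the values. fastp, Bowtie 1.3.1 and the hg38 build are named per the submitters' processing notes. For the counting tool, annotation, strand setting and read lengths, the sources used here give nothing. The 3 vector-named footprint columns were taken as the control hairpin, since the other 3 name sh61A. The table's 6 other per-sample columns belong to no sample described here and were not used, so footprints are not divided by mRNA. Gene names are those that the list of 9 IDs carries. The RefSeq table (GRCh38.p14) has no Ensembl IDs to check them against. RefSeq served for overlapping genes only, and no coordinates are printed.

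The test was edgeR 4.0.16 (R 4.3.3; filterByExpr, TMM, glmQLFit and glmQLFTest, two-sided) over 11653 features, with Benjamini-Hochberg adjustment over all of them and a threshold of 0.05. SE is the size of the log2 fold change over the square root of F, and 95% intervals use the fit's degrees of freedom. Counting error is 1 over the square root of the mean count, and no molecular identifiers are described, so it and the limits for a count of 0 cover counting error only. Alternatives used DESeq2 1.42.0, limma 3.58.1 with voom, other scaling and filters, a replicate block and each library left out. The fit and its intervals were also run on simulated data drawn from the fit itself, which cannot check the scaling assumption. No outcome of that run is given here. The genes and lists were chosen with earlier results of these data known, and the rule was to name all 9. The pair ratios were added after the data were seen. The likeness distances used log2(CPM + 0.5). Same-numbered libraries were checked for pairing.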

Additional observations from a re-analysis of the deposited data

How the results depend on the processing

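Over 15 alternatives, none called ITGB1, ITGB5, ITGB8, ITGA2, ITGA3, ITGA6 or ITGAV, and DESeq2 alone called ITGA5, which gave 1 called gene in place of 0. ITGA5, ITGB5 and ITGB8 were above 0 in all 15, at 0.29 to 0.63, 0.31 to 0.89 and 0.65 to 1.31 on the log2 scale. Library size alone, which moves the median of all features to -0.30, put ITGB1, ITGA2, ITGA3 and ITGA6 at -0.054, -0.25, -0.23 and -0.14 and the summed level ratio at 1.02 in place of 1.25. Relative to that median all 4 genes were above 0, as with TMM, which had to follow because the median moves with the genes. Without a filter on low counts ITGAV was at 0.0030. The signs of ITGA2, ITGA3, ITGA6 and ITGAV also turned when single libraries were left out. In those fits ITGB1 ran from 0.11 to 0.42, ITGA2 from -0.21 to 0.26, ITGA3 from -0.10 to 0.18, ITGA6 from -0.027 to 0.38 and ITGAV from -0.14 to 0.15.

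The number of features called was 784 with DESeq2, 735 without a filter, 602 with at least 10 CPM in 3 libraries and 208 with the replicate block, against 364. Leaving out 1 library gave 47 to 171, and such fits have fewer samples. Under library size alone the calls split into 63 higher and 334 lower, against 173 and 191. The causes were not tested. Under the replicate block 0 of the 8 genes were called, with adjusted p = 0.226 for ITGA5 in edgeR. Between a control and a knockdown library with equal numbers, the correlation of deviations was -0.0039 (number 1), -0.017 (number 2) and 0.050 (number 3). With unequal numbers it ran from -0.083 to 0.086, so no likeness by number was seen. Whether libraries of equal number shared a culture or a preparation was not tested. With 1 library left out, the log2 difference in the ratio to ITGB1 ran from -0.42 to 0.13 for ITGA2, from -0.52 to 0.033 for ITGA3 and from -0.40 to 0.27 for ITGA6. The planned share of ITGB1 among the beta chains per coding length was not run for want of coding lengths. Counts were fewest for ITGB3 and ITGB8. For ITGB8 the CV between libraries, 36.9% in control and 25.9% in knockdown, was still above counting error, 13.9% and 7.72%.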
